A study of Mus musculus with 32 samples.

Results

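The keratin genes Krt7, Krt8, Krt18, Krt19, Krt20 and Krt23, were followed in the kidney of mice given cisplatin, a platinum drug that injures the renal tubule. They are 6 of the 54532 genes in the deposited table, beside 47 other protein-coding genes with a Krt symbol. The members were chosen by name as keratins of injured tubules, and Krt20 was selected on its rise after cisplatin in these same libraries. For that reason the change of Krt20 from Day 0 is given below as a description with no test.

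Whole-kidney RNA was sequenced from 32 wild-type C57BL/6 mice, aged 6 to 8 weeks, in 8 groups of 4 biological replicates, 1 group of each sex for Day 0, Day 2, Day 3 and Day 5. Mice received a single intraperitoneal injection of cisplatin at 20 mg/kg. Day 0 was the control of its sex and is called healthy by the study, although the labels of the Day 0 females name cisplatin as the treatment and those of the Day 0 males give none. Every mouse had a library of its own.

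Keratins are the intermediate filament proteins of epithelial cells. A filament is built from obligate pairs of an acidic type I keratin and a basic type II keratin. In simple, single-layered epithelia the usual type II partners are Krt8 and Krt7, and the usual type I partners are Krt18 and Krt19. In the kidney these 4 are best known from the collecting duct, the urothelium of the renal pelvis and, at lower levels, other tubule segments. Krt20 is a type I keratin known from intestinal epithelium and from the superficial umbrella cells of the urothelium, and it is used as a marker of injured proximal tubule. Krt23 is a type I keratin of less settled function.

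On GRCm38 the type II genes and Krt18 lie on chromosome 15 and the other type I genes on chromosome 11. Krt7 spans bases 101411043 to 101430313 (plus strand), Krt8 spans 101996698 to 102004482 (minus strand) and Krt18 spans 102028180 to 102032027 (plus strand) on chromosome 15. Krt20 spans bases 99428403 to 99438150, Krt23 spans 99477974 to 99493137 and Krt19 spans 100140810 to 100148665 on chromosome 11, all on the minus strand. Krt7 overlaps Gm671 and Krt8 overlaps Gm36026, each annotated on the opposite strand, and since the strandedness of the counting is not given in the sources used here, reads from the overlaps cannot be told apart.

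Promoter stretches were available for 5 of the 6 genes (RefSeq, GRCm38.p6) and are shown for Krt20, which moved apart from the other members, and for the neighbouring partners Krt8 and Krt18, of which Krt18 passed the test in Day 5 males and Krt8 did not. Each stretch runs 5′ to 3′ on the gene's strand, ends at or just before the start of the gene in the deposited table, and has matches to the motifs searched in capitals.
Krt20 (chr11:99438154-99438403, minus strand): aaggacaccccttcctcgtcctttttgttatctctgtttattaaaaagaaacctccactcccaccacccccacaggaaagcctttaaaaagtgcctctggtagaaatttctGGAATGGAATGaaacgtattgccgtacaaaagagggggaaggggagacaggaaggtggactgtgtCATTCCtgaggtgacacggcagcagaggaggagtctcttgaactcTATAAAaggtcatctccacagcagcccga
Krt8 (chr15:102004483-102004592, minus strand): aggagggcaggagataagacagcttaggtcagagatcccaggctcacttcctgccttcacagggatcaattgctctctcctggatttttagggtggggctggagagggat
Krt18 (chr15:102027966-102028179, plus strand): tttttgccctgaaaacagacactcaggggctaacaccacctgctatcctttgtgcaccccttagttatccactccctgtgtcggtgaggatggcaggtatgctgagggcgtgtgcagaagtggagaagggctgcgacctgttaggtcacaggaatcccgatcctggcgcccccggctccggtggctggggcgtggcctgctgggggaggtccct
The motifs were AP-1 (TGANTCA), TEAD (CATTCC), the GC box (GGGCGG) and the TATA box (TATAAA), each on both strands, chosen after the expression values were known. They were searched in the 250 bases before each start site. In the Krt20 window, CATTCC had 3 matches, at bases -139 to -134 and -134 to -129 on the opposite strand, which share 1 base, and at -74 to -69, and TATAAA had a match at -29 to -24. Of the 32851 RefSeq promoters of this length, 12.6% hold CATTCC, 0.0913% hold it 3 times or more, and 12.4% hold TATAAA. The Krt7 window, which lies wholly inside the deposited span of that gene, held 4 matches to GGGCGG, a motif present in 32.7% of promoters. The windows of Krt8, Krt18 and Krt23 held none of the 4 motifs. TGANTCA, present in 6.75% of promoters, was in none of the 5 windows. These matches describe letters and are no evidence of a bound factor.

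The libraries held between 16502107 and 35961325 counts. Levels are given as CPM, counts scaled to library size, after TMM scaling over the 32 libraries. The share of counts on the mitochondrial genome ranged from 78.9% to 79.8% in 3 of the Day 5 males (mice 2, 3 and 4) and was 77.9% in 1 Day 5 female (mouse 2), against 4.49% to 42.5% in the other 28 libraries. The library labelled male Day 5 mouse 1 held 232 CPM of Xist and 21.6 CPM over 4 Y-linked genes. The 3 other Day 5 males held 8.28 to 38.6 CPM of Xist and 66.4 to 87.8 CPM of the Y-linked genes. Females of Day 2, Day 3 and Day 5 held 102 to 325 CPM of Xist and no Y-linked count. The Xist level of the library labelled male Day 5 mouse 1 thus goes against its sex label, and its Y-linked level lies between those of the sexes. Males of Day 2 and Day 3 held 0 to 0.208 CPM of Xist, and Day 0 males 2.71, 0.35, 0 and 13.9 CPM. Xist thus lay above every Day 2 and Day 3 male in all 4 Day 5 males and in Day 0 male mice 1, 2 and 4. Female Day 0 libraries held 0.137 to 7.17 CPM of the Y-linked genes, and female Day 0 mouse 2 also held 6973 CPM of Alb, a hepatocyte gene, against 9.87 to 149 in the other 3. Male Day 0 mouse 4, with 13.9 CPM of Xist, also had the highest mitochondrial share of the Day 0 males. Results at Day 5 and at Day 0 rest on these libraries.

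Per length of gene, Krt8 was the most abundant of the 6 keratins in healthy kidney and Krt20 the least. In Day 0 males the mean FPKM (fragments scaled to gene length and library size, as deposited) was 65.5 ± 12.9 for Krt8 and 18.3 ± 6.57 for Krt18 (SD, n = 4). Krt7 stood at 11.6 ± 0.936 FPKM, Krt19 at 5.91 ± 2.24, Krt23 at 1.46 ± 0.524 and Krt20 at 0.407 ± 0.346. Day 0 females had the same order, from 83.8 ± 29.3 FPKM for Krt8 through 31.0 ± 11.2 for Krt18 to 0.296 ± 0.295 for Krt20. The deposited length of Krt7, 7049 bases against 1437 to 1958 for the other 5, covers the exons of all its transcripts, which lowers its FPKM. Krt8 made up 63.5% ± 8.55 of the summed FPKM of the 6 genes in Day 0 males and 57.8% ± 7.47 in Day 0 females.

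**Figure D1:**
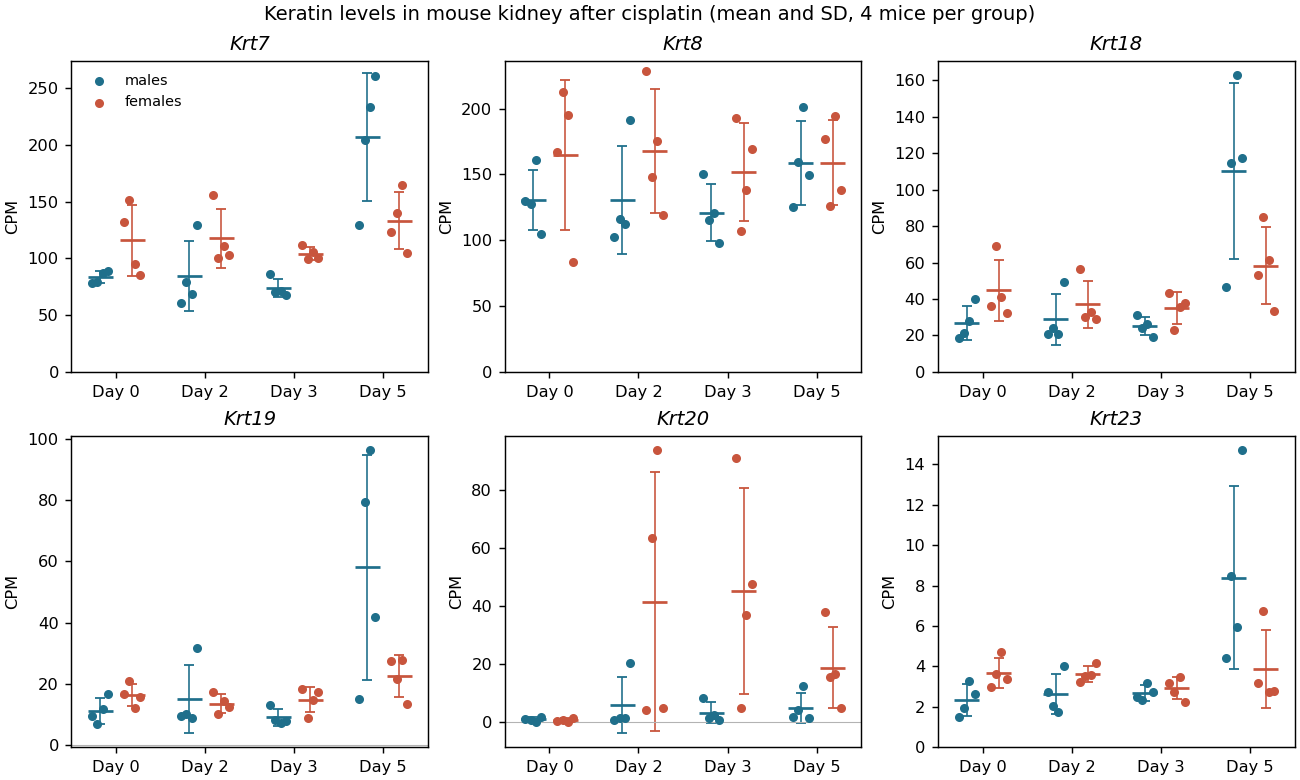
CPM (vertical axis) of each keratin in each mouse, by day, for males (blue) and females (orange); points are mice, and bars show the group mean and SD of 4 mice. Krt20 is near 0 at Day 0 and spread from 4.80 to 91.0 CPM in Day 3 females, while Krt7, Krt18, Krt19 and Krt23 have their highest group mean in Day 5 males.

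Krt20 was nearly silent at Day 0 and higher after cisplatin, with higher group means in females than in males at each later day. Day 0 males had 0.868, 0.70, 0 and 1.67 CPM, from 16, 14, 0 and 29 counts. Day 0 females had 0.357, 0.605, 0 and 1.35 CPM, from 11, 22, 0 and 50 counts. The counts of 0 in mouse 3 of each sex allow up to 0.109 CPM in the male and 0.147 CPM in the female (3 counts, counting error only).

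In Day 2 females Krt20 stood at 3.94, 63.5, 93.7 and 4.62 CPM. Mice 2 and 3 were more than 10 times above mice 1 and 4, yet all 4 lay above every Day 0 female. Day 3 females had 91.0, 4.80, 36.8 and 47.4 CPM, with mouse 2 far below the others. Day 5 females had 37.9, 15.4, 16.5 and 4.63 CPM, still all above Day 0. The fitted log2 change from Day 0 was 6.08 (SE 1.36) at Day 2, 6.18 (SE 1.06) at Day 3 and 4.94 (SE 0.93) at Day 5, which is 67.7-fold, 72.6-fold and 30.6-fold. With a mouse left out the log2 change ran from 5.32 to 6.86 at Day 2, from 5.60 to 6.96 at Day 3 and from 4.36 to 5.73 at Day 5.

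In males the change was smaller and rested on few mice. Day 2 males had 0.439, 1.20, 1.08 and 20.1 CPM of Krt20, so that mouse 4 alone lay above Day 0. The log2 change at Day 2 was 2.86 (SE 1.36) with mouse 4 and 0.19 without it. Day 3 males had 8.26, 1.16, 2.20 and 0.544 CPM, a log2 change of 1.94 (SE 1.09) that was 0.71 without mouse 1. Day 5 males had 1.73, 3.86, 12.4 and 1.26 CPM, with 3 of 4 mice above the highest Day 0 male, and a log2 change of 2.65 (SE 1.06). This last change was 1.56 without mouse 3.

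Krt20 was also higher on average in females than in males at Day 3, given again as a description, since the Day 3 libraries enter the rise on which Krt20 was chosen. The mean was 45.0 ± 35.6 CPM in females and 3.04 ± 3.55 in males (SD, n = 4), and 3 of 4 females lay above every male. The log2 difference was 3.93 (SE 1.06), and 3.32 to 5.13 with a mouse left out. Of 13 injured tubule genes, Havcr1 (log2 difference 3.60, adjusted p = 0.0248) and Spp1 (1.81, adjusted p = 0.0281) were called higher in females in the same comparison by edgeR. Of 7 hepatocyte genes tested, Alb (4.34), Apoa1 (2.26) and Serpina3k (5.73) were called higher in females and Serpina1a (-1.84) lower. The white adipocyte genes Retn (1.91) and Lep (2.46) and the neurofilament genes Nefl (2.46) and Nefm (2.37) were also called higher in females. Their part in the Krt20 values was not tested. None of the other 5 keratins was called at Day 3 by edgeR or DESeq2, where 1.93% of all genes tested were called (adjusted p under 0.05 and absolute log2 difference over 1.5), and Krt7, Krt18 and Krt19 had an unadjusted p under 0.05, as did 6119 of 16673 genes in all.

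At Day 2 the mean of Krt20 was 41.4 ± 44.6 CPM in females and 5.70 ± 9.60 in males (log2 difference 2.92, SE 1.29, and 2.14 to 5.54 with a mouse left out), and at Day 5 it was 18.6 ± 13.9 and 4.82 ± 5.19 (log2 difference 1.95, SE 0.79, and 1.33 to 3.02 with a mouse left out). At Day 0 the groups overlapped throughout, with a log2 difference of -0.43 (SE 1.29). The difference between the sexes in the change from Day 0 was 3.23 (SE 1.92) at Day 2, 4.24 (SE 1.51) at Day 3 and 2.32 (SE 1.42) at Day 5 on the log2 scale, given as a description.

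The mouse with most Krt20 in its group was also the mouse with most of 2 tubule injury transcripts in most groups. Havcr1 encodes KIM-1, a receptor shed by injured proximal tubule, and Lcn2 encodes NGAL, an iron carrier protein released by injured tubules. Havcr1 peaked in the same mouse as Krt20 in 6 of 8 groups, all but the 2 Day 0 groups, and Lcn2 in 7 of 8. In Day 2 males, mouse 4 had 63.6 CPM of Havcr1 against 1.29 to 4.02 in the other 3. In Day 3 females, mouse 2 was lowest in both genes, with 3.84 CPM of Havcr1 against 17.0 to 72.9.

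**Figure D2:**
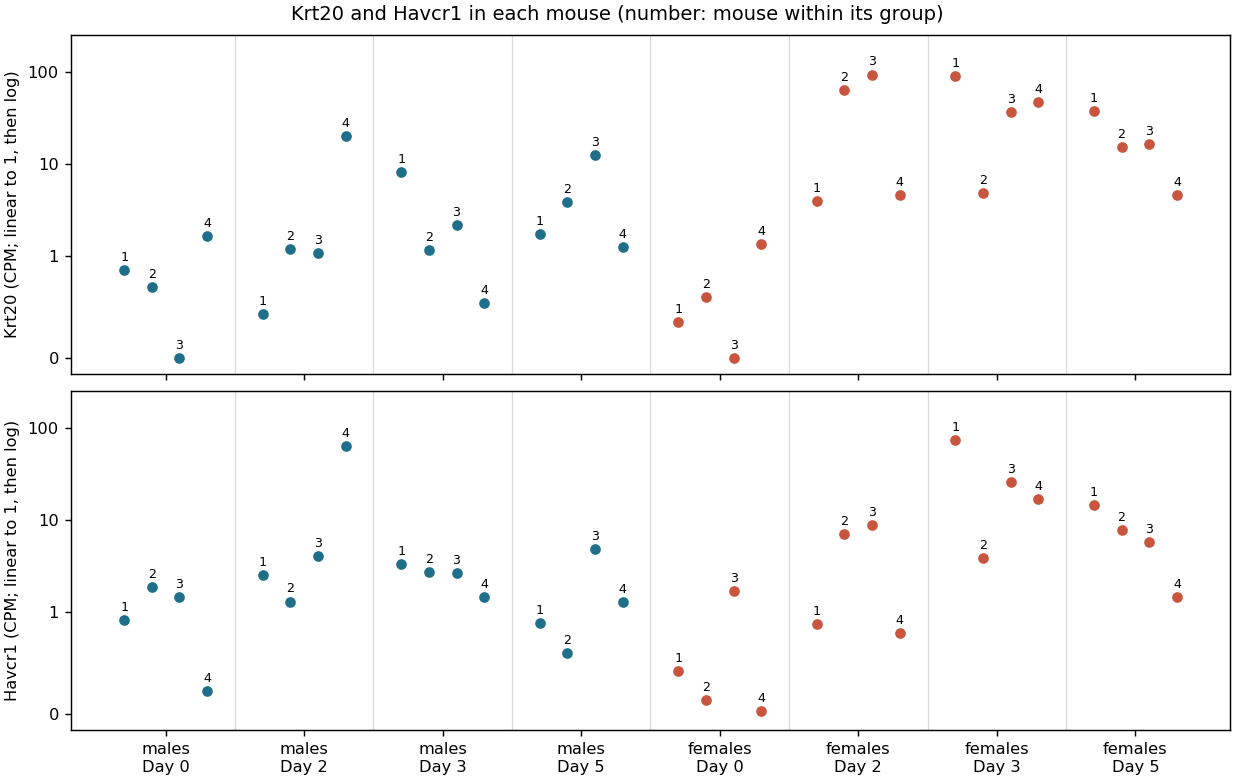
Krt20 (upper panel) and Havcr1 (lower panel) in CPM for each of the 32 mice, on an axis that is linear to 1 and logarithmic above, with the mouse number beside each point. Male Day 2 mouse 4 stands at 20.1 CPM of Krt20 and 63.6 CPM of Havcr1, above the other 3 mice of its group in both.

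Over all 32 libraries, the protein-coding genes nearest to Krt20 by Pearson correlation of log2 CPM were 9530053A07Rik (r = 0.93), Srxn1 (r = 0.92), which encodes the antioxidant enzyme sulfiredoxin, and Arl4c (r = 0.90), a small GTPase of the Arf family. The other 5 keratins correlated with Krt20 at r of 0.09 to 0.31. These values describe libraries that share 8 group means and 1 scaling.

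Krt20 took a changing share of the keratin message in females. Its share of the summed FPKM of the 6 genes was 0.271% ± 0.353 at Day 0, 12.8% ± 13.0 at Day 2, 13.7% ± 8.45 at Day 3 and 5.53% ± 3.75 at Day 5. In males the share was 0.416% ± 0.338 at Day 0 and 1.84% ± 2.63, 1.42% ± 1.41 and 0.98% ± 0.764 at the later days.

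For the other 5 keratins no change in the group mean was called at Day 2 or Day 3 in either sex. Within some groups single mice lined up with Krt20 and within others they did not. The 4 Day 3 females had the same order in Krt8, Krt18 and Krt19 as in Krt20, the 4 Day 3 males in Krt7, Krt8 and Krt18, and male Day 2 mouse 4 was highest of its group in all 6 keratins. In Day 2 females, mouse 1 had the lowest Krt20 and the highest Krt7 (156 CPM), Krt8 (229), Krt18 (56.4) and Krt19 (17.2). In males the log2 changes lay between 0.01 and 0.44 at Day 2 and between -0.32 and 0.19 at Day 3, where 0.716% and 3.72% of all genes tested were called. In females they lay between -0.28 and 0.03 at Day 2 and between -0.37 and -0.13 at Day 3, with 1.41% and 2.48% of all genes called. None of these 20 tests had an unadjusted p under 0.05, by edgeR or by the DESeq2 Wald test, while edgeR gave such a p to 4654 of 16051 and 6441 of 15908 genes in males and to 4189 of 16541 and 5247 of 17065 genes in females. The 95% intervals reached no further than -1.01 and 1.47, both for Krt19 in males, so the intervals leave room for changes up to these bounds.

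The levels of Krt8 overlapped throughout. Day 2 males had 102, 116, 113 and 191 CPM of Krt8 and Day 0 males 130, 128, 161 and 105 CPM (log2 change 0.01, SE 0.23). Day 3 males lay between 98.0 and 150 CPM. Day 2 females lay between 119 and 229 CPM and Day 3 females between 107 and 193, beside 83.7 to 212 at Day 0. Between Day 2 and Day 3, none of the 5 keratins other than Krt20 was called in males or in females, none had an unadjusted p under 0.05 by edgeR or DESeq2, and 0 genes in all (0%) were called by edgeR in either sex, against 22 in males and 61 in females by DESeq2, and 1410 and 678 genes had an unadjusted p under 0.05 by edgeR.

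Krt7, Krt18, Krt19 and Krt23 had their highest group mean in Day 5 males. Krt18, Krt19 and Krt23, all type I, were called higher than at Day 0 (3 of 5 keratins, where 7.53% of all genes tested were called), Krt7 passed the adjusted p but not the fold threshold, and Krt8 did not pass. Of all genes tested, 5402 of 14969 had an unadjusted p under 0.05 by edgeR. How many of all genes had groups that did not overlap was not counted in any comparison. In whole-kidney RNA, more cells of a type and more RNA per cell cannot be told apart. These Day 5 values rest on 3 libraries of high mitochondrial share, with 8.28 to 38.6 CPM of Xist, and on 1 whose Xist level goes against its sex label.

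Krt18 stood at 46.3, 114, 163 and 118 CPM in Day 5 males and at 18.4, 21.4, 27.7 and 39.9 CPM in Day 0 males. The groups did not overlap, and the library labelled mouse 1 was lowest at Day 5. The log2 change was 2.11 (SE 0.39, adjusted p = 0.012, edgeR), or 4.31-fold.

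Krt19 stood at 14.9, 79.6, 96.4 and 41.7 CPM in Day 5 males, against 9.39, 6.80, 11.8 and 16.7 CPM at Day 0. Mouse 1 lay within the Day 0 range and the other 3 above it. The log2 change was 2.45 (SE 0.53, adjusted p = 0.0166, edgeR), the largest of the 5.

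Krt23, the least abundant of these 4, stood at 4.42, 8.47, 5.96 and 14.7 CPM, above all Day 0 males (1.47, 1.95, 3.25 and 2.65 CPM). Its log2 change was 1.90 (SE 0.45, adjusted p = 0.0208, edgeR). Krt7 stood at 130, 204, 234 and 261 CPM, above the 78.4 to 88.8 CPM of Day 0 (log2 change 1.38, SE 0.25, adjusted p = 0.0113, edgeR). Krt8 stood at 125, 159, 201 and 150 CPM, overlapping its Day 0 range of 105 to 161 (log2 change 0.34, SE 0.24, 95% interval -0.19 to 0.87, adjusted p = 0.326, edgeR).

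Without the library labelled male Day 5 mouse 1 the log2 changes were larger, 1.56 for Krt7, 2.37 for Krt18, 2.77 for Krt19 and 2.13 for Krt23, and 4 of 5 keratins were called. Krt18 was called with any mouse left out, and Krt19 and Krt23 each lost their call in 4 of the 8 fits with a mouse left out. The count fell to 1 of 5 when mouse 1 or 2 of the Day 0 males, or mouse 2 of the Day 5 males, was left out, as the adjusted p of Krt19 and Krt23 came to between 0.0526 and 0.0642. Krt19 was also lost without mouse 3 (adjusted p = 0.0527) and Krt23 without mouse 4 (adjusted p = 0.0615) of the Day 5 males, by edgeR. With the 3 libraries of high mitochondrial share left out, an alternative added after the data were seen, Day 5 is the library labelled mouse 1 alone, assumed to vary like the others. The log2 changes then were 0.72 for Krt7, 0.86 for Krt18, 0.50 for Krt19 and 1.0 for Krt23, and none was called (adjusted p of at least 0.705).

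The same 4 genes rose from Day 3 to Day 5 in males. Krt7, Krt18, Krt19 and Krt23 were called, 4 of 5 keratins beside 9.64% of all genes. Their log2 changes were 1.58 (SE 0.22, adjusted p = 0.0026), 2.23 (SE 0.34, adjusted p = 0.00324), 2.78 (SE 0.52, adjusted p = 0.00559) and 1.73 (SE 0.36, adjusted p = 0.00832) by edgeR. All 4 Day 5 mice lay above all Day 3 mice in each, a separation that was not counted over all genes. Of all genes tested, 7790 of 15654 had an unadjusted p under 0.05 by edgeR. Krt8 reached 0.48 (SE 0.19, adjusted p = 0.0698). Krt20 stood at 4.82 ± 5.19 CPM at Day 5 and 3.04 ± 3.55 at Day 3 (log2 change 0.71, SE 0.92), and its direction turned without male Day 5 mouse 3 (-0.37). Whether the change of Krt20 differed from those of the other keratins was not tested. The count was 2 of 5, Krt18 and Krt19, without male Day 5 mouse 4, and 0 of 5 without the 3 libraries of high mitochondrial share. Both Day 5 comparisons use the same 4 Day 5 libraries.

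**Figure D3:**
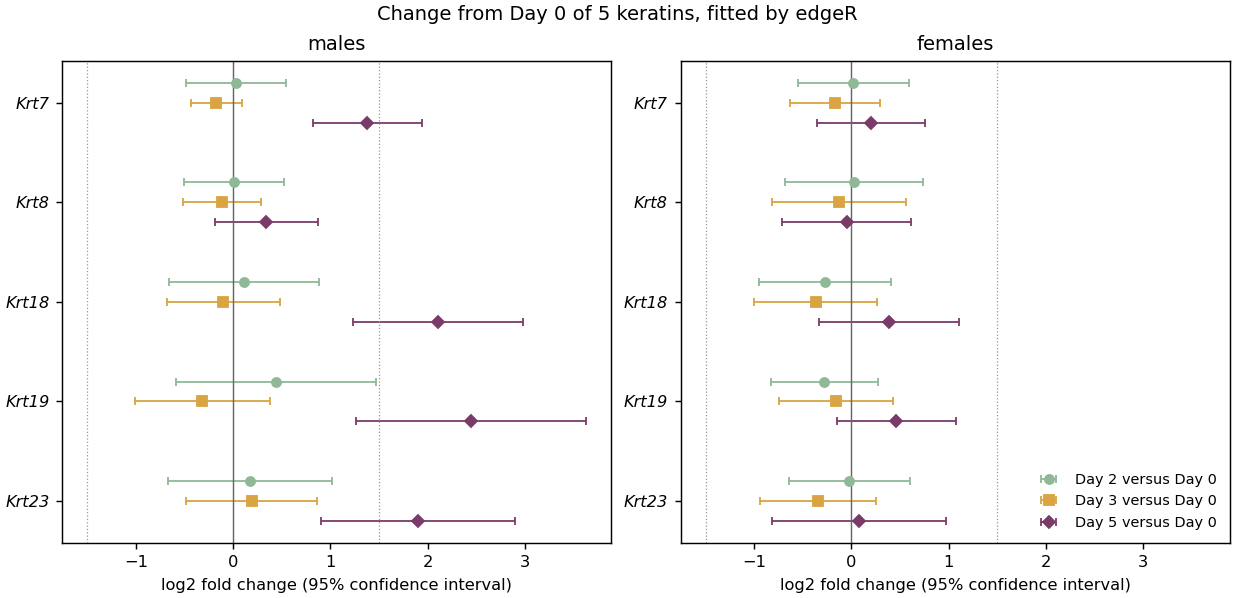
Log2 change from Day 0 (horizontal axis) of Krt7, Krt8, Krt18, Krt19 and Krt23 at Day 2, Day 3 and Day 5 in males (left) and females (right); points are edgeR estimates, bars their 95% confidence intervals, and dotted lines the fold threshold of 1.5. The Day 5 male estimates of Krt18 (2.11), Krt19 (2.45) and Krt23 (1.90) lie past the line, and no female estimate does.

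In females none of the 5 keratins was called at Day 5 against Day 0, where 0.228% of all genes were, and none had an unadjusted p under 0.05 by edgeR or DESeq2. Krt18 stood at 53.1, 84.8, 61.2 and 33.6 CPM in Day 5 females and at 36.2, 68.98, 41.3 and 32.4 CPM at Day 0 (log2 change 0.39, SE 0.33, 95% interval -0.34 to 1.11). The highest of the 4, mouse 2, was the female library with a mitochondrial share of 77.9%. Krt19 lay between 13.3 and 27.9 CPM at Day 5, with 3 of 4 mice above all Day 0 females (log2 change 0.46, SE 0.28, 95% interval -0.15 to 1.07). Krt7, Krt8 and Krt23 had log2 changes of 0.20, -0.05 and 0.07.

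From Day 3 to Day 5 in females, 0 of the 5 keratins other than Krt20 and 0 genes in all (0%) were called by edgeR. Krt7, Krt18 and Krt19 had an unadjusted p under 0.05, as did 1973 genes in all, and DESeq2 called none of the 5 keratins and 20 genes in all. Krt20 stood lower at Day 5 than at Day 3 on average (18.6 ± 13.9 against 45.0 ± 35.6 CPM), but the groups overlapped (log2 change -1.26, SE 0.81).

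The change from Day 0 to Day 5 was smaller in females than in males for each of the 5 keratins, but none of these differences was called. The difference of the changes, female minus male on the log2 scale, was -1.16 (SE 0.35) for Krt7, -1.71 (SE 0.52) for Krt18, -1.97 (SE 0.61) for Krt19 and -1.83 (SE 0.59) for Krt23, with adjusted p of 0.135, 0.144, 0.147 and 0.156 (edgeR, called at adjusted p under 0.05). For Krt8 it was -0.37 (SE 0.38, adjusted p = 0.711). All but Krt8 had an unadjusted p under 0.05, as did 2568 of 16907 genes, and edgeR called 0.243% of all genes. The DESeq2 Wald test called 3 of 5 (Krt7, Krt18 and Krt19), beside 650 of the 16415 genes it tested. Without the library labelled male Day 5 mouse 1, edgeR called 4 of 5, with adjusted p of 0.00755 to 0.0412, beside 1173 of 17410 genes tested. In 1 fit over all 8 groups, edgeR called all but Krt8, with adjusted p of 0.0223 to 0.0472. Without the libraries over 70% mitochondrial, which leaves 1 Day 5 male library, the direction turned for Krt8 (0.10) and Krt19 (0.048). For the changes to Day 2 and to Day 3, 0 of 5 keratins were called by edgeR or DESeq2 and none had an unadjusted p under 0.05, while edgeR called 0% and 0.0114% of all genes (738 genes at an unadjusted p under 0.05 for Day 2, and 28 by DESeq2).

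Krt7 differed between the sexes at Day 3 with no overlap, in a comparison where 6119 of 16673 genes had an unadjusted p under 0.05 by edgeR. How many of all genes lay apart in this way was not counted. Day 3 females had 112, 99.9, 105 and 101 CPM of Krt7 and Day 3 males 85.9, 70.5, 71.6 and 68.0 CPM. The log2 difference was 0.53 (SE 0.09, adjusted p = 0.0035, edgeR), under the fold threshold, and at Day 5 it was -0.69 (SE 0.26, adjusted p = 0.19). Krt18 (log2 difference 0.51, adjusted p = 0.104) and Krt19 (0.75, adjusted p = 0.07) did not pass at Day 3.

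At Day 0 and at Day 2, 0 of the 5 keratins other than Krt20 were called between the sexes by edgeR or DESeq2, where 0.362% and 0.813% of all genes were called. Krt7 and Krt18 at Day 0, and none at Day 2, had an unadjusted p under 0.05 by edgeR, beside 1289 of 16042 and 2485 of 16608 genes in all. At Day 5, 0 of 5 were called (0.236% of all genes) by edgeR or DESeq2, although Krt7, Krt18, Krt19 and Krt23 had an unadjusted p under 0.05, as did 3094 of 15237 genes. Males were then the higher sex in Krt19, with 58.2 ± 36.8 CPM against 22.5 ± 6.80 in females, and without the library labelled male Day 5 mouse 1 this difference was called (log2 difference -1.79, SE 0.31, adjusted p = 0.00286, edgeR). In the same fit Krt7 (-0.92, adjusted p = 0.0168), Krt18 (-1.29, adjusted p = 0.0106) and Krt23 (-1.48, adjusted p = 0.033) passed the adjusted p but not the fold threshold (edgeR). Krt8 (-0.21, adjusted p = 0.573, edgeR) passed neither.

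The ratio of a type II to a type I keratin inside a library needs no scaling between libraries. On the log2 scale the Krt8 to Krt18 ratio of FPKM was 2.37, 2.13, 2.09 and 0.94 in Day 0 males and 0.99, 0.03, -0.14 and -0.10 in Day 5 males. Mouse 4 of Day 0, the lowest of its group, lay just under mouse 1 of Day 5, and the rest of the groups lay apart. Of the Day 0 males, mouse 4 also had the highest mitochondrial share, Xist level (13.9 CPM) and white adipocyte sum (2592 CPM). Whether these enter its ratio was not tested. The mean ratio was 1.69 lower at Day 5 (exact permutation test, two-sided, p = 0.0571, adjusted p = 0.514 over the 12 ratio tests). The smallest p that 4 against 4 mice can give is 0.0286. Adjusted over 12 tests, a single comparison at this smallest p would not fall under 0.05, so the adjusted p cannot decide whether this ratio shifted.

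In Day 5 females the Krt8 to Krt18 ratio was 1.29, 0.12, 1.22 and 1.59, and mouse 2, of high mitochondrial share, had a ratio near those of the Day 5 males. At Day 2 and Day 3 this ratio lay between 1.5 and 1.98 in males and between 1.5 and 1.96 in females. For the Krt7 to Krt19 ratio, Day 5 males had 1.19, -0.57, -0.65 and 0.72 and Day 0 males 1.14, 1.61, 0.95 and 0.49 (mean difference -0.87, exact permutation p = 0.2, adjusted p = 0.686). The other 10 ratio comparisons shifted by -0.36 to 0.33 with exact p of 0.0857 or more.

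**Figure D4:**
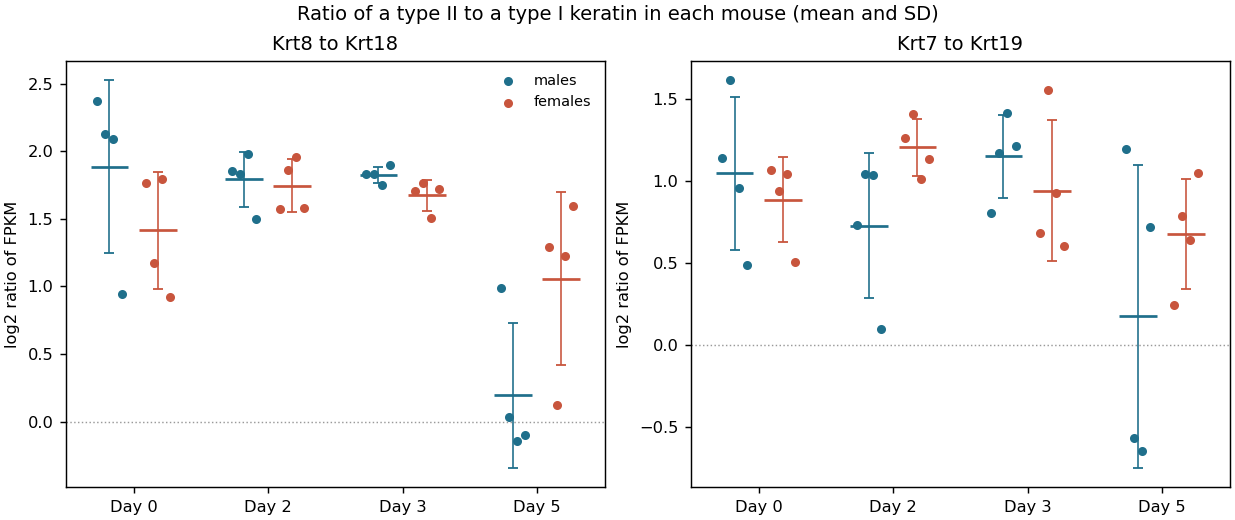
Log2 ratio of FPKM (vertical axis) of Krt8 to Krt18 (left) and Krt7 to Krt19 (right) in each mouse by day, for males (blue) and females (orange), with the group mean and SD of 4 mice. In Day 5 males 3 of 4 mice have a Krt8 to Krt18 ratio near 0, equal levels per length, against 0.94 to 2.37 at Day 0.

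The order of the 8 group means differed by gene. For Krt7, Krt18, Krt19 and Krt23, Day 5 males came first and Day 5 females next, and the lowest mean was in Day 3 males (Krt7, Krt18 and Krt19) or Day 0 males (Krt23). The highest mean was 2.80 times the lowest for Krt7, 4.40 times for Krt18, 6.46 times for Krt19 and 3.61 times for Krt23. Krt8 ran from Day 2 females (168 ± 46.8 CPM) to Day 3 males (121 ± 21.7 CPM), 1.39 times apart. For Krt20, Day 3, Day 2 and Day 5 females came first, then Day 2, Day 5 and Day 3 males, and the Day 0 groups last, with the highest mean 77.9 times the lowest. In every one of the 6 genes, each of the 7 neighbouring pairs of groups in the order had overlapping ranges, so the mice of neighbouring groups did not lie apart.

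Among themselves, the 5 keratins other than Krt20 split along the same line over the 32 libraries. Krt18 correlated with Krt7 and with Krt19 at r = 0.93, and Krt23 with Krt18 at r = 0.80, while Krt8 reached r = 0.62 at most, with Krt7. The nearest other genes were Hspb1 (r = 0.96) for Krt18, which encodes the small heat shock protein HSP27, Sh3bgrl3 (0.95) for Krt7, Nbl1 (0.94) for Krt19, Cuedc1 (0.91) for Krt23 and Fbxo6 (0.89) for Krt8. Anxa2 (0.94), an annexin of epithelial membranes, and Sh3bgrl3 (0.94) followed for Krt18, Ddah2 (0.95) and Fbxo2 (0.93) for Krt7, Hspb1 (0.93) and Vim (0.91) for Krt19, Npdc1 (0.88) and Lmna (0.88) for Krt8, and Endod1 (0.89) and Lypd6b (0.88) for Krt23. As for Krt20, these correlations are descriptions over libraries that share their groups.

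Few other keratins were expressed. Of 24 other type I keratins 4 passed the filter over all groups. Of 22 other type II keratins listed, 21 had a row in the deposited table and 4 passed. Krt80 (13.5 CPM over the 32 libraries), Krt5 (6.98) and Krt10 (5.94) were the most abundant. Krt5, the basal type II keratin of stratified epithelia and urothelium, was the single one called against Day 0, in Day 5 males (log2 change 2.19, SE 0.65, adjusted p = 0.0434, edgeR), 1 of the 2 type II keratins tested there. Of the 4 type I keratins tested against Day 0 none was called by edgeR in any of the 6 comparisons. From Day 3 to Day 5 in males, Krt14, the type I partner of Krt5, was called higher (log2 change 3.68, SE 0.75, adjusted p = 0.00754, edgeR), as was Krt5 (2.03).

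In a list of other intermediate filament genes and of plakins, which anchor keratin filaments to cell junctions, the genes called against Day 0 were all plakins. Dsp, desmoplakin of the desmosome, was called higher in males at Day 2, Day 3 and Day 5 (log2 changes of 1.61, 1.60 and 1.84), and Ppl, periplakin, likewise (1.70, 1.57 and 2.46). In females Dsp also lay above every Day 0 mouse (15.8 to 24.4 CPM) at Day 2 (36.6 to 55.6 CPM) and Day 3 (36.4 to 53.6 CPM), as did Ppl, with log2 changes under the fold threshold. For neither gene was a sex difference in the change from Day 0 called by edgeR at any day. Eppk1, epiplakin, which binds keratin bundles, was called in Day 5 males (1.75) and in Day 3 females (1.51). Of this list of 26, 2 of 17 tested were called higher at Day 2, 2 of 15 at Day 3 and 3 of 16 at Day 5 in males, and 0 of 19, 1 of 20 and 0 of 18 in females, with none lower. Of all genes tested, 0.716%, 3.72% and 7.53% were called on these days in males and 1.41%, 2.48% and 0.228% in females, in either direction. The median log2 change of the list was 0.62 at Day 5 in males beside 0.04 over all genes tested.

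Markers of urothelium, the epithelium that lines the renal pelvis, moved with the Day 5 keratins in males. The summed level of 13 urothelial genes was 109 to 424 CPM in Day 5 males, with the library labelled mouse 1 lowest, and 49.6 to 94.6 CPM in Day 0 males. Of 11 tested, 4 were called higher, beside 7.53% of all genes called: Psca (log2 change 2.49), Upk3b (2.67), Upk1b (2.03) and Krt5 (2.19). Their median was 2.03, beside 1.90 for the 5 keratins and 0.04 for all genes. In females the sum was 62.0 to 91.4 CPM at Day 5 and 78.3 to 172 CPM at Day 0, with none of 12 called. The part of urothelium in the Day 5 male values was not tested.

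For Krt20 the same list gave other values. At Day 3 the urothelial sum in females was 56.9 to 67.0 CPM, below every Day 0 female, and Psca was called lower (-2.10), as was Upk2 in Day 3 males (-1.71), while Krt20 was above every Day 0 female. In Day 2 females the mice with 63.5 and 93.7 CPM of Krt20 had urothelial sums of 65.0 and 62.6 CPM, and the mice with 3.94 and 4.62 CPM had 79.1 and 67.8. In Day 2 males, mouse 4 was highest in both, with a sum of 163 CPM against 55.1 to 56.2 in the other 3.

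Some mesothelial markers were also called higher in Day 5 males. Of 7 mesothelial genes tested, Msln (log2 change 4.01), Muc16 (3.40) and Upk3b, which urothelium shares, were called, and the sum was 76.4 to 286 CPM against 67.1 to 142 CPM at Day 0. Of 8 collecting duct genes tested, Aqp4, a water channel, was called (1.96), 1 of 8 beside 7.53% of all genes, and the sum was 1130 to 1798 CPM against 516 to 1125. The sum of the proximal tubule genes was 853 to 6556 CPM in Day 5 males, highest in the library labelled mouse 1, against 10465 to 13166 at Day 0, and 2 of 10 were called, Slc34a1 (-2.93), the phosphate cotransporter, and Slc22a6 (-3.12), an organic anion transporter. No gene of these 3 lists was at 0 in all 4 mice of a group, and of the urothelial list this held for Krt13 alone, in Day 0 males and Day 0 females. How far a change in the mix of cells or tissue enters the keratin values was not tested.

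**Figure D5:**
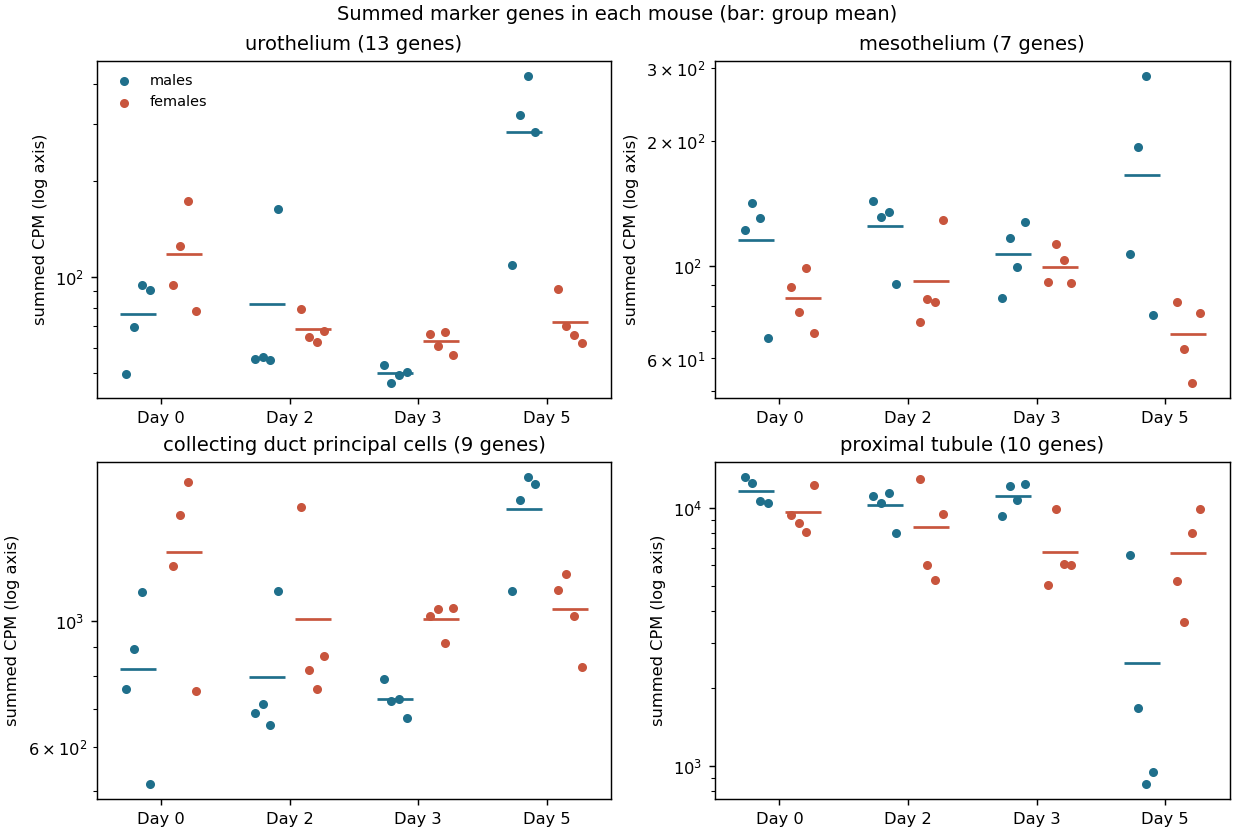
Summed CPM (log axis) of marker genes of urothelium, mesothelium, collecting duct principal cells and proximal tubule in each mouse by day, for males (blue) and females (orange); short bars are group means. The Day 5 males lie at 109 to 424 CPM for urothelium and at 853 to 6556 CPM for proximal tubule, in each case outside their Day 0 range.

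Of 13 genes of the injured tubule, Havcr1 (log2 change 5.86) and Lcn2 (4.40) were called higher in Day 3 females, Lcn2 (3.53) in Day 3 males, and Lcn2 (4.19) and Cldn4 (2.16), a tight junction gene, in Day 5 males, where Itgb6 was called lower (-2.11). None was called at Day 2 in either sex or in Day 5 females by edgeR. Spp1 (1224 CPM over the 32 libraries), Clu (334) and Cd24a (147) were the most abundant of the list and were not called in these 6 comparisons. At Day 3 the list's median log2 change was 0.69 in females and 0.49 in males, against medians of -0.17 and -0.11 for the 5 keratins.

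Among tissues that could be carried along with a kidney, the white adipocyte list summed to 962 to 5055 CPM in Day 5 males and 264 to 344 CPM in Day 3 males. In Day 0 males it summed to 500, 518 and 792 CPM in mice 1, 2 and 3 and to 2592 CPM in mouse 4, overlapping Day 5. From Day 3 to Day 5 in males 7 of 7 genes were called higher, beside 9.64% of all genes called. From Day 0 to Day 3 in males 5 of 7 were called lower, beside 3.72% of all genes called. No gene of this list was called from Day 0 to Day 5 in males. The hepatocyte sum was 11705 CPM in female Day 0 mouse 2 against 63.1 to 434 in the other 3, and that mouse had the highest Krt7, Krt8, Krt18 and Krt19 of its group. Ttr was called lower in males at each day. Of the exocrine pancreas list Cela1 alone passed the filter, and it was called lower in males at Day 3 and Day 5 and in females at Day 3. The epidermis and hair list summed to 5.65 to 40.1 CPM in all libraries, and Krt5 was its 1 gene called against Day 0. The part of these tissues in the keratin values was not tested.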

How the data were processed

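The authors deposited raw counts per gene for 32 libraries, made from paired-end reads of total kidney RNA aligned to GRCm38 per the study's methods, and FPKM values for the same libraries. The submitters' processing notes name HTSeq, DESeq2 and the builds GRCm39 and mm39. The gene coordinates deposited match GRCm38, which is used here. Strandedness and versions are not given in the sources used here.

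Samples were grouped by sex and day from their labels. The quasi-likelihood test of edgeR 4.0.16 (R 4.3.3), with TMM scaling, filterByExpr and robust dispersions, was run on the counts in 17 comparisons, each on the groups it compares. P-values were Benjamini-Hochberg adjusted over all genes tested. Calls needed an adjusted p under 0.05 together with a log2 fold change beyond 1.5 in either direction, or, for the sex difference in a change, at the adjusted p alone. Fold changes are the later day against the earlier, or females against males. Log2 CPM used a prior count of 2. Ratios of FPKM were tested by exact permutation over 70 arrangements. Tests were checked on simulated data. Krt20, chosen on its rise in these libraries, is described with no p and enters only the counts out of 6 among the alternatives.

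The 6 members, and the lists of keratins, filaments and cell type markers, were chosen with earlier results of these data known. Genes named are the members, the called genes of the other keratin, filament and plakin lists (at most 4 a list), called or abundant markers, and the 3 nearest genes of each member. The alternatives were DESeq2's size factors, the Wald test of DESeq2 1.42.0, other filters on low counts (none, or at least 10 counts in every library), 1 fit over all 8 groups, a replicate block, a log2 threshold of 1, no mitochondrial genes, and each mouse left out. Leaving out the 4 libraries with over 70% mitochondrial counts was added after the data were seen. A gene at 3 counts or fewer is near the limit of detection, and intervals and limits cover counting error only where they rest on counts.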

Additional observations from a re-analysis of the deposited data

Results flagged for a closer look

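In 48 sets of 4 mice (6 keratins in 8 groups), 6 had a highest mouse that stood apart from the other 3 by more of the range than Dixon's 95% critical value for 4 samples. For independent, normally distributed values chance flags about 1 in 20 such sets, a rate not checked on these data. Of the 6, 4 were male Day 2 mouse 4, with 191 CPM of Krt8, 49.5 CPM of Krt18, 31.7 CPM of Krt19 and 20.1 CPM of Krt20, and this mouse was also highest in the urothelial sum (163 CPM) and in Havcr1 (63.6 CPM). The other 2 were Krt18 in female Day 2 mouse 1 (56.4 CPM) and Krt23 in female Day 5 mouse 2 (6.74 CPM). No sex difference in a change from Day 0 passed edgeR's test as fitted on the groups compared, for the 5 keratins tested, while for the change to Day 5 DESeq2 called 3 of 5.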

How the results depend on the processing

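Counts of keratins called by edgeR, which here include Krt20 where given out of 6, kept within 1.5 times of their value except as follows. For males, Day 5 against Day 0 (3 of 5), the count was 1 to 4 with a mouse left out, and for Day 5 against Day 3 (4 of 6) it was 2 to 4. Without the libraries over 70% mitochondrial both counts were 0. For females against males at Day 3 (1 of 6, Krt20, which the text gives as a description) it was 0 with no filter on low counts, 0 in the fit over all 8 groups, and 0 to 1 with a mouse left out, and at Day 5 (0 of 6) it was 0 to 1. For the sex difference in the change to Day 5 (0 of 5) it was 3 by DESeq2, 4 in the fit over all 8 groups, and 0 to 4 with a mouse left out. Without the libraries over 70% mitochondrial, which leaves as the Day 5 males the 1 library whose Xist level goes against its sex label, the sex difference in the change to Day 5 turned to 0.10 for Krt8 and 0.048 for Krt19, and the log2 change of Krt20 in males from Day 3 to Day 5 to -0.75. With a mouse left out the latter ran from -0.37 to 1.93. The causes were not tested.

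With a mouse left out, the shift of the log2 Krt8 to Krt18 ratio ran from -0.41 to 0.070 in males at Day 2 and from -0.37 to 0.11 at Day 3, and that of the Krt7 to Krt19 ratio from -0.085 to 0.29 in males and from -0.15 to 0.17 in females at Day 3.

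Same-numbered mice of different groups were different animals, and their deviations correlated at r of -0.42 to 0.48. With the replicate block the counts were 3 of 5 for males, Day 5 against Day 0, and 4 of 6 for Day 5 against Day 3, as without it, and the block changed no other count. The filter of 10 counts in every library removed Krt20 from each comparison with Day 0. Depth limits Krt20 at Day 0, with 0 to 50 counts a library.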
